A study of Homo sapiens with 27 samples.

Results

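miR-572 is a human microRNA (miRNA) that was measured by 1 probe, the row for the mature strand whose name is hsa-miR-572, out of 774 human miRNA probes (637 for mature strands and 137 for precursors). The arrays carry no second probe for it and none for its precursor. The RNA came from OCI-AML3, an established acute myeloid leukaemia cell line, on 27 arrays in 9 groups of 3. Untreated cells taken at 0 h were the control. The other cells received either the chemokine SDF-1α, the ligand of CXCR4, at 100 ng/mL, or POL6326, an antagonist of the same receptor, at 250 nM, and were sampled after 1, 2, 4 or 8 h. Whether the 3 arrays of each group hold RNA of separate cultures is not stated in the labels, and p-values measure only the spread between arrays. No treated group has an untreated group of its own time, so time in culture and treatment cannot be told apart against the control. miR-572 was chosen by its values in these data, the difference in signal between POL6326 and SDF-1α, so that difference is given as a description with no test.

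miRNAs are short RNAs cut from a hairpin precursor, and they lower the output of messenger RNAs that pair with their seed, the bases near the 5′ end. SDF-1α acting on CXCR4 holds leukaemia cells in the bone marrow, and antagonists of CXCR4 block that signal. No role in blood cells is assigned to miR-572 here.

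The mature sequence and the hairpin are shown to let the seed and base composition of miR-572 be read. They are RefSeq entries of the build GRCh38.p14, with the hairpin of the gene MIR572 on the plus strand at chr4:11368827-11368921 and the mature strand at chr4:11368887-11368906. Capitals mark bases 2 to 8, the seed, in the mature strand, and the whole mature strand in the hairpin.
miR-572: gUCCGCUCggcgguggccca
MIR572 hairpin: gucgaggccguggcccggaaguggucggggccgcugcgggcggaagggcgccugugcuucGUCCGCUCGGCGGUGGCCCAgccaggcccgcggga
The mature strand is 20 bases long and occupies bases 61 to 80 of the 95-base hairpin, on its 3′ arm. It holds 16 G or C bases (80.0%), against a median of 47.8% over the 268 mature probes that matched a single RefSeq sequence. Only miR-638 among the other 267 of these probes was as rich in G and C. Of 2370 mature names in RefSeq, 1, miR-572 itself, has this seed. The nearest of the single-sequence probes by edit distance was miR-668, 9 changes away, so no close sequence relative was found among them. Folding of the hairpin gave a minimum free energy of -54.8 kcal/mol, with 17 of the 20 mature bases and 7 of 7 seed bases paired. In the RefSeq gene table the hairpin overlaps the pseudogene RNPS1P1, and the next protein-coding genes are CLNK on the side of lower coordinates and HS3ST1 on the side of higher coordinates.

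Many low values of an array are tied at 1 level, called its floor, and the lowest value above that level is called its detection limit. miR-572 was above the floor on 27 of 27 arrays. On 3 of them, at 6.15 to 6.37, it lay 0.85 to 1.21 above the array's own limit and under the limits of the SDF-1α 1 h arrays (6.88 to 7.42). The number of human probes above the floor ranged from 210 to 593 per array, and the number of arrays limits the precision. Of the 5 myeloid and haematopoietic markers, miR-223, miR-142-5p and miR-155 were above the floor on 27 arrays, miR-181a on 10 and miR-142-3p on 4. Markers of other tissues varied as widely within a tissue. The liver marker miR-122 was above the floor on 27 arrays, and of the muscle markers miR-206 was above it on 27, miR-1 on 9 and the 2 probes of miR-133a on 13 and 5. Of the stromal markers miR-143 was above it on 0 and the 2 probes of miR-145 on 26 and 14. The neural markers miR-9 and miR-124 were above it on 23 and 19 arrays, the epithelial markers miR-141, miR-203 and miR-200c on 21, 15 and 3, and the erythroid markers miR-451 and miR-144 on 17 and 1.

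In untreated cells miR-572 gave log2 signals of 10.47, 11.19 and 10.71 (10.79 ± 0.36, SD, n = 3). After 1 h with SDF-1α it read 11.36, 11.41 and 11.28 (11.35 ± 0.06, SD, n = 3), above every control array. After 2 h with SDF-1α it read 11.11, 10.71 and 10.14 (10.65 ± 0.48, SD, n = 3), which overlapped the control. The signal was thus near or above that of untreated cells at the first 2 times with the ligand. After 4 h with SDF-1α it read 9.28, 9.17 and 6.15 (8.20 ± 1.78, SD, n = 3), and after 8 h it read 8.56, 9.41 and 9.23 (9.07 ± 0.45, SD, n = 3). All 6 of these later arrays lay under the lowest control array, and 1 of them, the third array at 4 h, stood 3.02 under the next lowest of its group.

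With POL6326 the signal was already lower at 1 h, at 9.54, 9.20 and 8.93 (9.22 ± 0.31, SD, n = 3). At 2 h it read 6.37, 6.32 and 8.29 (6.99 ± 1.12, SD, n = 3), the lowest mean of the 9 groups. The arrays at 2 h did not agree closely, as 2 of them lay 1.03 and 0.85 above their detection limits and the third 3.08 above its own. At 4 h it read 7.74, 8.06 and 8.09 (7.97 ± 0.19, SD, n = 3), and at 8 h 8.55, 8.09 and 7.88 (8.17 ± 0.34, SD, n = 3). All 12 POL6326 arrays lay under the lowest control array, compared with 7 of 12 SDF-1α arrays, of which 3 lay above the highest control array and 2 within the control range.

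**Figure D1:**
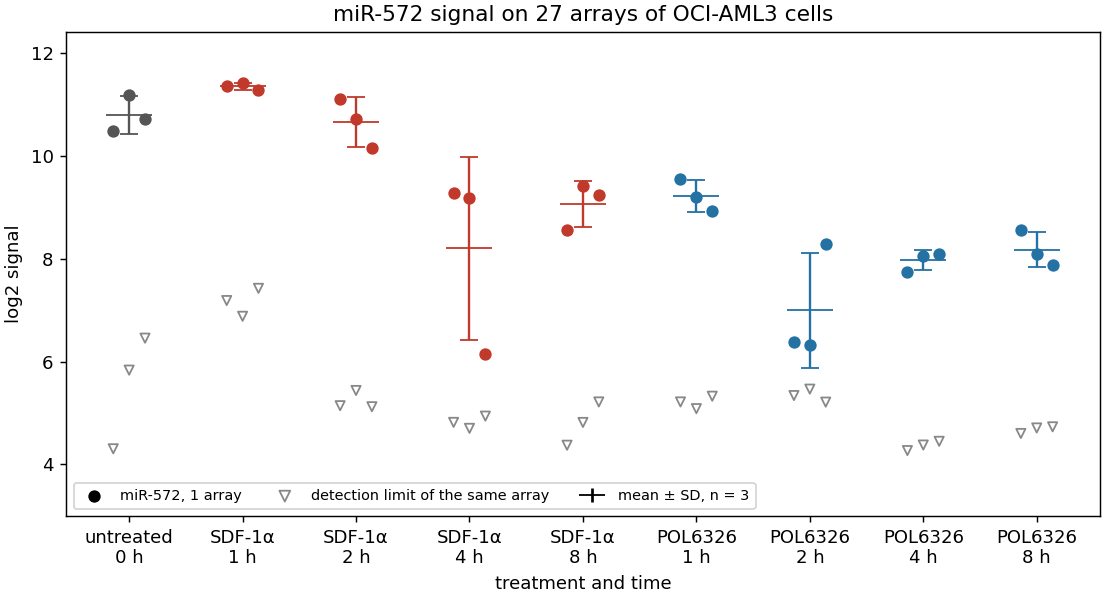
The log2 signal of miR-572 on each of the 27 arrays (dots), by treatment and time, with the mean ± SD of each group of 3 (bars) and the detection limit of the same array (triangles). The SDF-1α arrays at 1 and 2 h lie between 10.14 and 11.41, near the control, and the 12 POL6326 arrays lie between 6.32 and 9.54.

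Ordered by mean, the groups ran from SDF-1α at 1 h, through control and SDF-1α at 2 h, to POL6326 at 1 h, SDF-1α at 8 h, SDF-1α at 4 h, POL6326 at 8 h, POL6326 at 4 h and POL6326 at 2 h. The widest step between neighbours was the 1.43 from SDF-1α at 2 h down to POL6326 at 1 h, more than the pooled SD of those groups (0.41), and their ranges did not overlap. The step of 0.56 from SDF-1α at 1 h down to control (pooled SD 0.26) also left no overlap. The 6 other pairs of neighbours overlapped, and in 5 of them the step was under the pooled SD. The last pair, POL6326 at 4 h and at 2 h, differed by 0.97 with a pooled SD of 0.81. Over the 27 arrays the signal of miR-572 spanned 5.26, and its SD of 1.56 was the highest of the 174 probes above the floor on all arrays, whose median SD was 0.49. The gap between the treatments that chose the probe is part of that SD, so a high rank was favoured in advance.

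Against untreated cells, miR-572 was 6.51-fold lower with POL6326 over the mean of the 4 times (log2 -2.70, SE 0.48, 95% CI -3.71 to -1.69, adjusted p = 0.00269 by limma's moderated test). In that comparison 1.94% of the 774 probes passed as lower at an adjusted p under 0.05, and miR-572 had the sixth smallest p. The POL6326 and SDF-1α arrays are the ones whose difference chose the probe, so no test of them against control, over the mean or at a single time, is independent of that choice. With SDF-1α the difference over the 4 times was -0.97 (SE 0.48, 95% CI -1.98 to 0.03, adjusted p = 0.384), which did not pass, where 2.84% of probes passed in either direction.

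By time, the test against control was passed with POL6326 at 2, 4 and 8 h, where 2 h is also the time of the widest difference from SDF-1α that chose the probe. The log2 difference from control at 2 h was -3.80 (SE 0.61, 13.9-fold lower, adjusted p = 0.000476), where 2.07% of probes passed as lower. At 4 h it was -2.83 (SE 0.61, adjusted p = 0.0127), against 2.71% of probes lower, and at 8 h -2.62 (SE 0.61, adjusted p = 0.0225), against 1.16%. At 1 h the 3 POL6326 arrays were all under the control arrays, yet the difference of -1.57 (SE 0.61, 95% CI -2.84 to -0.29) gave an adjusted p of 0.173, with 2.45% of probes lower. The calls at 4 and 8 h rest on the control: without control array 2 they became -2.63 (adjusted p = 0.0773) and -2.42 (adjusted p = 0.0948). The call at 8 h also ended without control array 3, without POL6326 8 h array 2 and without POL6326 8 h array 3, with adjusted p of 0.0536, 0.0576 and 0.104. The value at 2 h moved to -4.45 without POL6326 2 h array 3, and its call ended when only these 2 groups were fitted (adjusted p = 0.059). With quantile normalization the call at 8 h ended (adjusted p = 0.053).

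With SDF-1α the differences from control were 0.56 at 1 h and -0.14 at 2 h (SE 0.61 each), with adjusted p of 0.676 and 0.993. At 4 h miR-572 was lower by 2.59 on the log2 scale (log2 -2.59, SE 0.61, 6.03-fold, adjusted p = 0.0302), where 1.03% of probes passed as lower. That call rests on SDF-1α 4 h array 3: without it the difference was -1.56 (adjusted p = 0.128). It also ended without control array 1, 2 or 3, with adjusted p of 0.0608, 0.12 and 0.0528, with quantile normalization (0.0707) and when only these 2 groups were fitted (0.594). At 8 h the difference was -1.72 (SE 0.61, 95% CI -2.999 to -0.45, adjusted p = 0.179), which did not pass, where 1.81% of probes did as lower. The 8 comparisons share the 3 control arrays, so their values are not independent of each other.

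**Figure D2:**
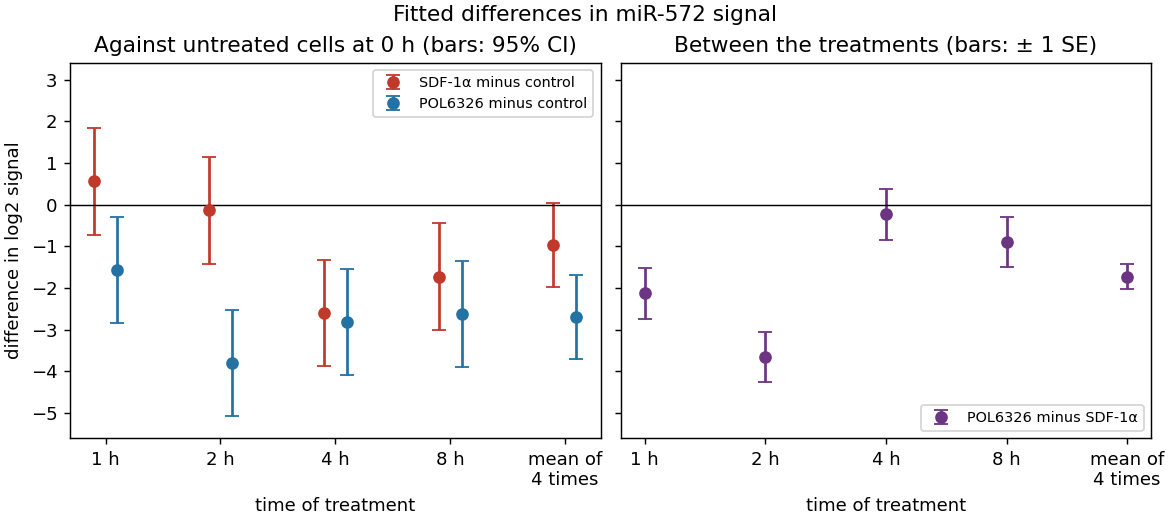
Fitted differences in miR-572 log2 signal (dots), at each time and over the mean of 4 times. At left each treatment is set against untreated cells at 0 h, with 95% confidence intervals (bars). At right POL6326 is set against SDF-1α as a description, with bars of 1 SE and no test, and the difference runs from -3.66 at 2 h to -0.23 at 4 h.

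Within SDF-1α the signal changed over the 4 times, from 11.35 at 1 h to 8.20 at 4 h and 9.07 at 8 h (limma's moderated F-test, F = 11.2, adjusted p = 0.0105), where 5.68% of the 774 probes passed the same test. Leaving out the 1 h groups ended that call (adjusted p = 0.147), whereas without any single array it ranged from 0.00346 to 0.0248. Within POL6326 the means moved between 6.99 and 9.22 (F = 4.52, adjusted p = 0.0869), which did not pass, where 13.6% of probes passed. Both time courses use the arrays whose difference between the treatments chose the probe, so neither F-test can be taken as independent of that choice. Without SDF-1α 4 h array 3, which adds to the spread that all groups share, the POL6326 time course passed (adjusted p = 0.00796). It also passed without POL6326 2 h array 3 (adjusted p = 0.0272). Without SDF-1α 4 h array 3 the differences from control of SDF-1α at 8 h and of POL6326 at 1 h passed too (adjusted p = 0.0262 and 0.0289).

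At matched times the POL6326 arrays lay under all SDF-1α arrays at 1, 2 and 8 h, and the ranges overlapped at 4 h. The log2 difference, POL6326 minus SDF-1α, had a mean of -1.73 (SE 0.30). By time it read -2.13 at 1 h and -3.66 at 2 h, but only -0.23 at 4 h, and -0.89 at 8 h (SE 0.61 each). These values chose the probe and are given without a test. The 4 h value depends on SDF-1α 4 h array 3, without which it was -1.26. Without the 2 h groups, where the gap between the treatments was widest, the mean difference was -1.08, and without the 4 h groups it was -2.23.

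The number of probes above the floor moved with some of these levels. It was lowest on the SDF-1α 1 h arrays (210 to 241), where miR-572 was highest, and highest on POL6326 4 h array 1 (593). At 2 h, where the gap between the treatments was widest, the number was 317 to 332 with SDF-1α and 318 to 333 with POL6326. The control arrays had 560, 304 and 257 probes above the floor and differed in miR-572 by at most 0.71. With the number fitted as a covariate, the mean difference of POL6326 from control stayed past the threshold, whereas the call at 4 h (-2.55, adjusted p = 0.0782) and the SDF-1α time course (adjusted p = 0.0535) did not. The number varied little within most groups and more between them, so this fit cannot fully separate it from the group. Whether it bears on the signal of miR-572 was not tested.

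**Figure D3:**
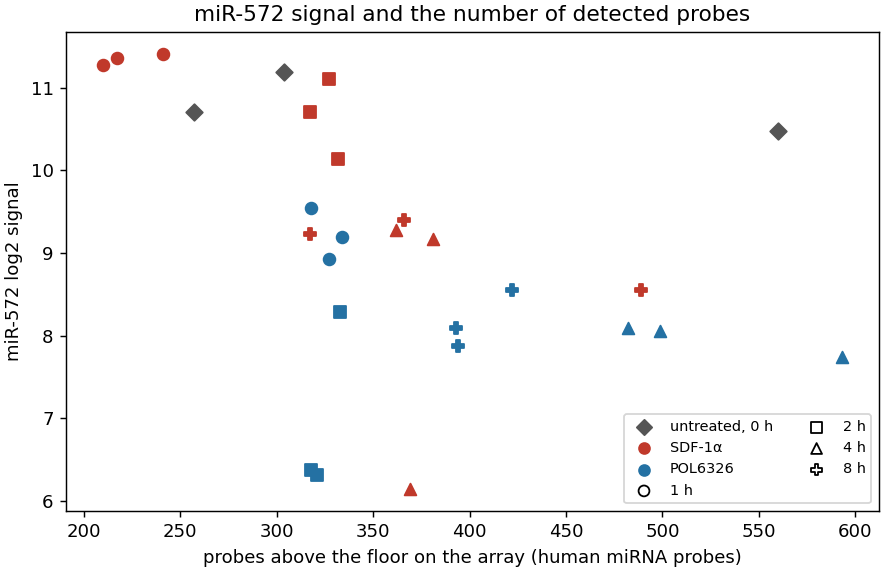
The log2 signal of miR-572 (vertical) against the number of human miRNA probes above the floor (horizontal) on each of the 27 arrays, coloured by treatment and shaped by time. The 2 h arrays of both treatments share a narrow range of 317 to 333 probes and are apart in miR-572, at 10.14 to 11.11 and 6.32 to 8.29.

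The probes most like miR-572 were sought among the other 173 that were above the floor on all 27 arrays, by Pearson's correlation of log2 signals over the 27 arrays. These correlations join arrays of the same groups and share each array's scaling, so they are a description. The median was 0.13, with 7 probes above 0.5 and 9 under -0.5. The 6 highest were miR-24 (r = 0.72), miR-448 (0.66), the mir-7-3 precursor (0.64), the mir-609 precursor (0.63), miR-16 (0.61) and the mir-206 precursor (0.58). miR-24 is made together with miR-23 and miR-27, miR-16 is known to restrain the cell cycle, and mir-206 gives a muscle miRNA. The probes of miR-23 were not like miR-572, with r = -0.43 for miR-23a and 0.07 for miR-23b. The 4 lowest were miR-136* (-0.73), which is the minor strand of a miRNA of the imprinted DLK1-DIO3 cluster, the probe of miR-138-1* marked Plus/Minus (-0.72), miR-216b (-0.62) and miR-638 (-0.61). What that mark means is not stated in the labels, and the other probe of miR-138-1*, marked Plus/Plus, had r = 0.45, on the opposite side. Of the 6 highest, 5 were also among the 6 highest over the 9 group means, 4 by Spearman's correlation and 6 after median centring. Within groups, after each group's mean was removed, the correlations of the 6 highest ran from 0.29 (mir-609 precursor) to 0.49 (miR-448), with 0.37 for miR-24. Those of the 4 lowest ran from -0.455 (miR-138-1* marked Plus/Minus) to -0.16 (miR-136*). Each was nearer 0 than over all arrays.

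The mature strands of these probes, except that of miR-138-1*, whose 2 probes differ in sign, are shown with the seed in capitals, to let them be read beside that of miR-572. They are RefSeq sequences of GRCh38.p14, and none were looked up for the precursor probes.
miR-24: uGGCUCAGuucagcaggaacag
miR-448: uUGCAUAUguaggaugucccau
miR-16: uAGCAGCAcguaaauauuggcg
miR-136*: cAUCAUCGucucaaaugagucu
miR-216b: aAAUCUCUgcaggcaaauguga
miR-638: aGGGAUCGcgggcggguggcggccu
No pair of the strands printed, miR-572 included, shares a seed.

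These probes were picked for their likeness to miR-572 on the same arrays, so their differences from control are given with no test. For miR-24 the log2 difference from control was 0.16, -0.13, -0.37 and -1.10 at 1, 2, 4 and 8 h of SDF-1α, and -0.97, -1.28, -1.53 and -0.81 at 1, 2, 4 and 8 h of POL6326. The value at 8 h was thus lower with SDF-1α than with POL6326, unlike that of miR-572. Over the mean of 4 times miR-24 differed from control by -1.15 with POL6326 and -0.36 with SDF-1α, and miR-16 by -1.12 and -0.37. Its lowest mean was at 4 h of POL6326 (5.82 ± 0.45, SD, n = 3), whereas miR-572 was lowest at 2 h. The mir-206 precursor was lowest at 2 h of POL6326 like miR-572 (6.03 ± 0.03, SD, n = 3), and at 8 h its means were 8.33 with SDF-1α and 8.14 with POL6326, against 8.15 in control. miR-136* had group means of 8.86, 9.13, 10.89 and 9.94 after 1, 2, 4 and 8 h of SDF-1α and of 11.31, 11.84, 12.12 and 12.54 after 1, 2, 4 and 8 h of POL6326, against 10.51 in control. At 8 h of SDF-1α both miR-136* and miR-572 lay under their control means.

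**Figure D4:**
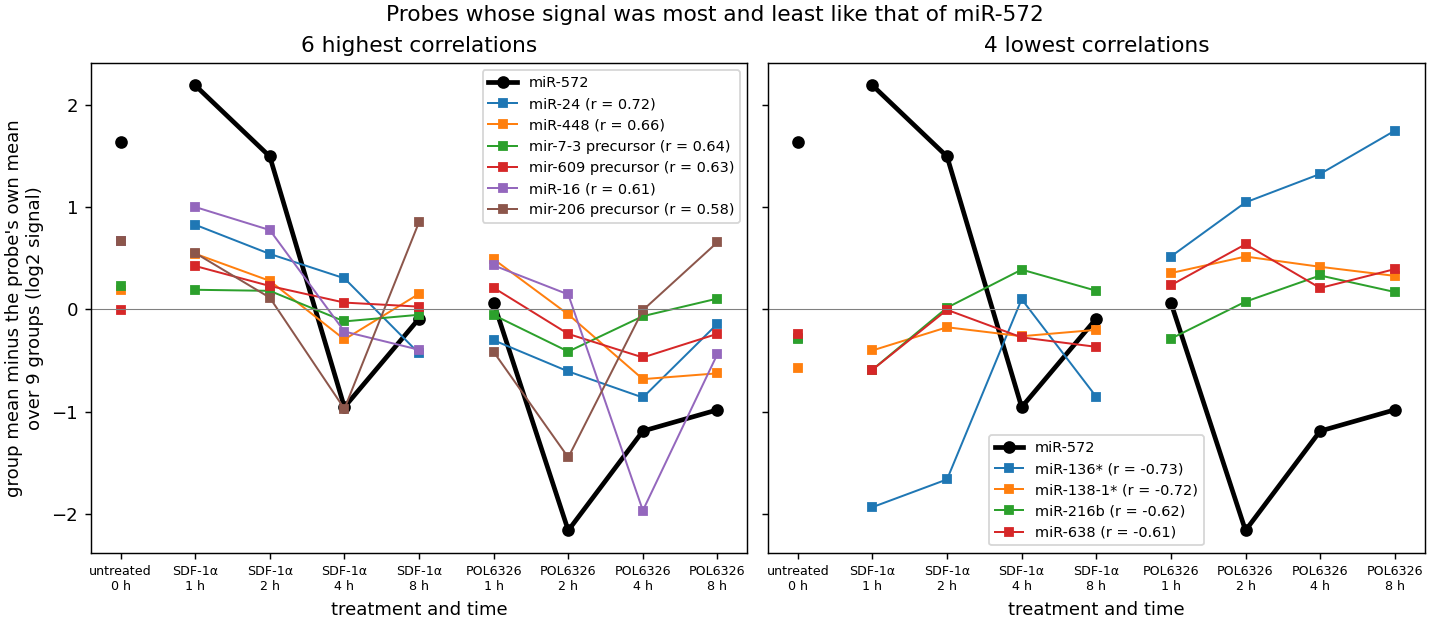
Group means of miR-572 (black) and of the 6 probes with the highest (left) and the 4 with the lowest (right) correlation with it over 27 arrays, each as the difference in log2 signal from the probe's own mean over the 9 groups. miR-136* stands low at 1 and 2 h of SDF-1α, where miR-572 stands high.

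A GC share of at least 70% was found for 7 other mature probes, over the 553 of 637 (86.8%) whose class RefSeq settled. In the mean of POL6326 minus SDF-1α 1 of the 7 was higher with POL6326, 2 were lower and 4 did not pass, with a median log2 difference of -0.13, against a median of -0.03 over all 774 probes, of which 9.82% passed (5.43% higher and 4.39% lower). miR-638, with the same GC share as miR-572, was higher with POL6326 by 0.68 (SE 0.15), at 9.60 ± 0.26 against 8.92 ± 0.46 (SD, n = 12 each). miR-638 also had 1 of the 4 lowest correlations with miR-572, which was chosen by the difference between POL6326 and SDF-1α. Neither the difference of miR-638 nor its place in the count above is independent of that choice, so no p-value is given for it. miR-602 was lower by 0.54 (log2 -0.54, SE 0.10, adjusted p = 0.00152 by limma) and miR-326 by 0.62 (log2 -0.62, SE 0.14, adjusted p = 0.00958). The named members were those with the smallest p of the list in this same comparison, so they do not stand for the list as a whole. The p-values are adjusted over all 774 probes. Any link between GC content and the difference between the treatments was not tested. Among the 127 other mature probes numbered miR-548 to miR-663, 9 were higher, 6 lower and 112 not past the threshold, with a median of -0.03. No other probe that matched RefSeq had the seed of miR-572, and no probe was found for the neighbouring miRNA genes MIR3138 and MIR12113.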

How the data were processed

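Labelled first-strand copies of total RNA were hybridised to miRNA arrays, per the labels' protocols. The values are log2 signals, as deposited by the authors, of 784 probes, of which 774 are human. The scanner, background correction, normalization and genome build are not stated in the labels or the file. All 27 columns share 1 maximum. Identical values also recur on different arrays. For miR-572, control array 3 and SDF-1α 2 h array 2 both read 10.7102, and POL6326 4 h array 3 and POL6326 8 h array 2 both read 8.0928. Whether the arrays had been matched by rank before deposit was not tested, so quantile normalization may not be a fresh check. The floor was each array's most frequent value (tolerance 0.0001). Deposited values were used unchanged. A model with 9 group means was fitted to 774 probes and 27 arrays with limma 3.58.1 in R 4.3.3 (prior degrees of freedom 0.90), with two-sided p-values adjusted by Benjamini-Hochberg over the 774 probes in each comparison and a threshold of 0.05. For miR-572, 10 comparisons with control and 2 F-tests over time were made. The test planned on other miR-572 probes had no probe to run on. The scripts were tested on simulated data.

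The members and lists were chosen with earlier results of these data known. Named probes were those of miR-572, the 6 highest and 4 lowest correlations, and 3 members with the smallest p from each list of up to 100. Names without an arm were matched to RefSeq by hand for miR-24, miR-16, miR-136* and miR-216b. Of 637 mature probes, 268 matched 1 RefSeq sequence, 291 both arms and 78 none. Hairpins were folded with RNAfold. The alternatives were those of the closing section.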

Additional observations from a re-analysis of the deposited data

Results flagged for a closer look

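The signal of miR-572 moved in opposite directions from the control mean in 3 pairs of groups, and these differences between effects were not tested. The 3 SDF-1α arrays at 1 h lay 0.49 to 0.62 above the control mean. The 3 POL6326 arrays at 1 h lay on the other side of it (differences of -1.86 to -1.25), so the 2 effects were 2.13 apart. That value is the difference between the treatments at 1 h, part of what chose the probe, and against control neither group passed (adjusted p = 0.676 for SDF-1α and 0.173 for POL6326). The SDF-1α arrays at 4 h were also on the other side (-4.64 to -1.51), 3.15 from the effect at 1 h, and so were those at 8 h (-2.23 to -1.39), 2.28 from it. The control mean is shared by these pairs.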

How the results depend on the processing

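The mean difference of miR-572 between POL6326 and control stayed past the threshold under all 13 alternatives (-3.08 to -2.34, adjusted p up to 0.0183) and without any single array (adjusted p up to 0.0395). With SDF-1α it passed under none of them (lowest adjusted p = 0.209). The mean difference between the treatments ran from -2.23 to -1.08. Other calls were less stable, and unless the setting itself shows it the cause was not tested. The 4 h difference between the treatments turned to 0.044 with quantile normalization and 0.049 with the number of detected probes as a covariate, and ran from -1.26 to 0.31 without single arrays. With quantile normalization SDF-1α at 4 h (-2.65, adjusted p = 0.0707) and POL6326 at 8 h (-2.57, adjusted p = 0.053) no longer passed. With 1 common detection limit (7.42) the 2 h difference between the treatments was -2.94, and SDF-1α at 8 h (-1.72) and POL6326 at 1 h (-1.57) passed. Of miR-548 to miR-663, 8 probes then passed against 15, as with the covariate (8). The share over all probes under these settings was not counted, so that drop cannot be read as particular to the list. With the covariate POL6326 at 4 h (-2.55) and the SDF-1α time course (0.0535) did not pass. The POL6326 time course passed when probes mostly at the floor (0.0457) or the lower 50% of probes (0.0467) were left out, with only the groups compared (0.0318) and without the 4 h groups (0.0206), and its adjusted p ran from 0.00796 to 0.218 without single arrays. With only the groups compared, which gives fewer arrays, SDF-1α at 4 h (-2.59), POL6326 at 2 h (-3.80) and the SDF-1α time course (0.113) no longer passed, and that time course also ended without the 1 h groups (0.147). Without single arrays SDF-1α against control ran from 0.40 to 0.76 at 1 h, -0.36 to 0.12 at 2 h (0.06 without control array 2, 0.12 without SDF-1α 2 h array 3), -3.13 to -1.56 at 4 h and -1.89 to -1.47 at 8 h. POL6326 ran from -1.73 to -1.37, -4.45 to -3.46, -2.98 to -2.63 and -2.80 to -2.42 at 1, 2, 4 and 8 h. With 1 array left out of a group, the other 2 are assumed to vary like the other groups. The replicate block changed no call for miR-572 (POL6326 against control -2.70, adjusted p = 0.00433). The labels link arrays of different groups by a replicate number alone. Correlations of same-numbered arrays ran from -0.28 to 0.72 (median 0.01), with 27 of 108 pairs over 0.1. Those of other-numbered arrays ran from -0.75 to 0.45 (median -0.01), with 32 of 216 pairs over 0.1. By mean correlation with each of the 3 numbers, 19 of the 27 arrays were closest to their own.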

Other observations

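The 3 lowest arrays for miR-572, SDF-1α 4 h array 3 and POL6326 2 h arrays 1 and 2, lay between 6.15 and 6.37, and the next array stood 1.37 higher at 7.74.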
